A study of Mus musculus with 313 samples.

Results

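Tsc22d3, Bcl2, Myc and Tet2 are 4 of the 100 genes assayed by single-cell quantitative RT-PCR in lymphoid precursors of the mouse fetal liver. They were grouped for their roles in the response to glucocorticoids, in survival, in growth and in DNA demethylation, and they were selected with earlier results of these cells in view. Their shares of detecting cells, their levels and the differences of these values between groups and sorts were part of that selection, so they are given as a description and no test of them supports a finding.

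Cells were sorted from pooled livers of mouse fetuses at embryonic day 15, and the transcripts of each cell were reverse transcribed, preamplified for 22 cycles and measured on a microfluidic Biomark HD instrument. All cells lacked lineage markers and carried integrin α4β7 and the α chain of the interleukin-7 receptor. The α4β7+ lymphoid precursors (aLP) were negative for PLZF and CXCR5, the common innate lymphoid cell precursors (ILCP) were positive for PLZF, and the lymphoid tissue inducer precursors (LTiP) were negative for PLZF and positive for CXCR5. No genotype, strain or treatment set the groups apart. Each cell name holds the number 2 or 3, which is read here as the sort. Sort 2 gave 54 aLP and 62 ILCP cells for use, and sort 3 gave 92 aLP, 90 ILCP and 14 LTiP cells, each set forming a pool. A pool mixes several livers, so the spread between pools is that between sorts and not between animals.

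Tsc22d3 encodes GILZ, a leucine zipper protein whose gene is switched on by the ligand-bound glucocorticoid receptor and also by FOXO factors. Bcl2 encodes a mitochondrial protein that blocks apoptosis, and signals of the interleukin-7 receptor maintain it in developing lymphocytes. Myc encodes a transcription factor that drives cell growth and division, and Tet2 encodes a dioxygenase that oxidises 5-methylcytosine as a step of DNA demethylation.

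A gene was called detected in a cell when its Ct, the PCR cycle at which the fluorescence crosses a threshold, was below 24. The level is 24 minus the Ct, in cycles, so that 1 cycle more stands for about 2 times as much cDNA. Assays differ in efficiency and amplicon, so levels are compared between cells and not between genes. Few values lay near the limit. A Ct of 24 or more was recorded in 5 cells for Myc, 4 for Bcl2, 3 for Tsc22d3 and 5 for Tet2, out of 313. The values just inside and just outside the limit were 22.1 and 24.04 for Myc, 23.8 and 25.2 for Bcl2, 23.7 and 24.01 for Tsc22d3, and 23.94 and 24.1 for Tet2.

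The amount of cDNA differed between pools. The mean Ct of Actb, Gapdh and Hprt was 14.6 ± 2.32 (SD over cells) in aLP of sort 2, 15 ± 0.81 in aLP of sort 3, 14.0 ± 1.20 and 14.4 ± 0.87 in ILCP of sorts 2 and 3, and 15.4 ± 1.17 in LTiP. The spread was widest in aLP of sort 2, where 7 of 54 cells had an Actb Ct above 16, against 0 or 1 cell in each of the other pools. Zbtb16, the gene of PLZF, was detected in 93.5% and 96.7% of the ILCP cells, in 20.4% and 3.3% of aLP cells of sorts 2 and 3, and in 50.0% of LTiP cells, although the last 2 groups were sorted as PLZF-negative. Cxcr5 was detected in 85.7% of LTiP cells. Of the 4 B-lineage genes on the panel, Ebf1 and Pax5 were at 0 in every pool except aLP of sort 3, where each was detected in 1.09% of cells. The other two, Bcl11a and Irf8, which other lineages also express, had shares of 20.4% and 74.1% in aLP of sort 2, 13% and 79.3% in aLP of sort 3, 2.2% to 4.84% and 33.3% to 40.3% in ILCP, and 14.3% and 57.1% in LTiP.

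Tsc22d3 was detected in more aLP cells than ILCP cells in each sort, and in more cells of sort 3 than of sort 2 in each group. Tsc22d3 lies on the X chromosome (GRCm38.p6, chrX:140539528-140600522). Its assay detected a transcript in 36 of 54 aLP cells of sort 2 (66.7%, exact 95% interval 52.5% to 78.9%) and in 89 of 92 aLP cells of sort 3 (96.7%, 90.8% to 99.3%). In ILCP it was detected in 22 of 62 cells of sort 2 (35.5%, 23.7% to 48.7%) and in 58 of 90 cells of sort 3 (64.4%, 53.7% to 74.3%). In LTiP it was detected in 7 of 14 cells (50.0%, 23% to 77%). The order of the pools was therefore aLP of sort 3, aLP of sort 2, ILCP of sort 3, LTiP and ILCP of sort 2, and only the step from the highest pool to the next had intervals that did not overlap. All intervals of this kind cover counting error only.

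**Figure D1:**
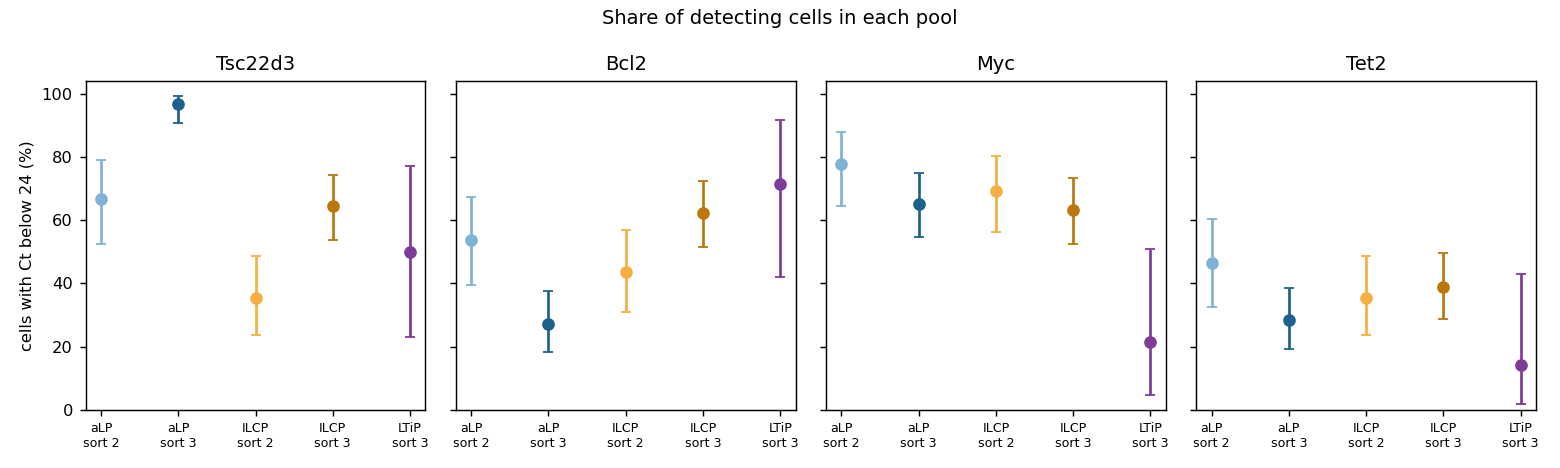
Share of cells with a Ct below 24 (vertical axis, percent) for each gene in the 5 pools (horizontal axis). Points are shares and bars are exact 95% intervals for counting error. Tsc22d3 stands at 96.7% in aLP of sort 3 and 35.5% in ILCP of sort 2, and Myc and Tet2 are lowest in LTiP, at 21.4% and 14.3%.

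In the cells that detected it, the level of Tsc22d3 was 5.24 ± 1.96 cycles (mean ± SD over 36 cells) in aLP of sort 2 and 7.55 ± 1.35 in aLP of sort 3 (89 cells). The levels in ILCP were 6.03 ± 0.73 in sort 2 and 6.26 ± 1.04 in sort 3, and that in LTiP was 6.54 ± 0.95. The aLP cells of sort 3 thus had both the highest share and the highest level. In these cells the lowest level was 4.26, the median 7.63 and the highest 10.36, and the lower quartile of 6.62 was above the median of each of the other pools. Set against the mean Ct of the 3 housekeeping assays in the same cells, Tsc22d3 lay 1.45 cycles below it in aLP of sort 3, 4.18 in aLP of sort 2, 4.34 and 3.35 in ILCP of sorts 2 and 3, and 1.63 in LTiP. Relative to housekeeping cDNA, the 7 detecting LTiP cells were therefore next to the aLP cells of sort 3. This closeness was not particular to Tsc22d3, since LTiP lay nearest to the housekeeping mean of all pools for Bcl2, Myc and Tet2. LTiP also had the highest mean housekeeping Ct of the pools. The 7 cells included the LTiP cell with the least housekeeping cDNA, and the value without it was not computed.

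**Figure D2:**
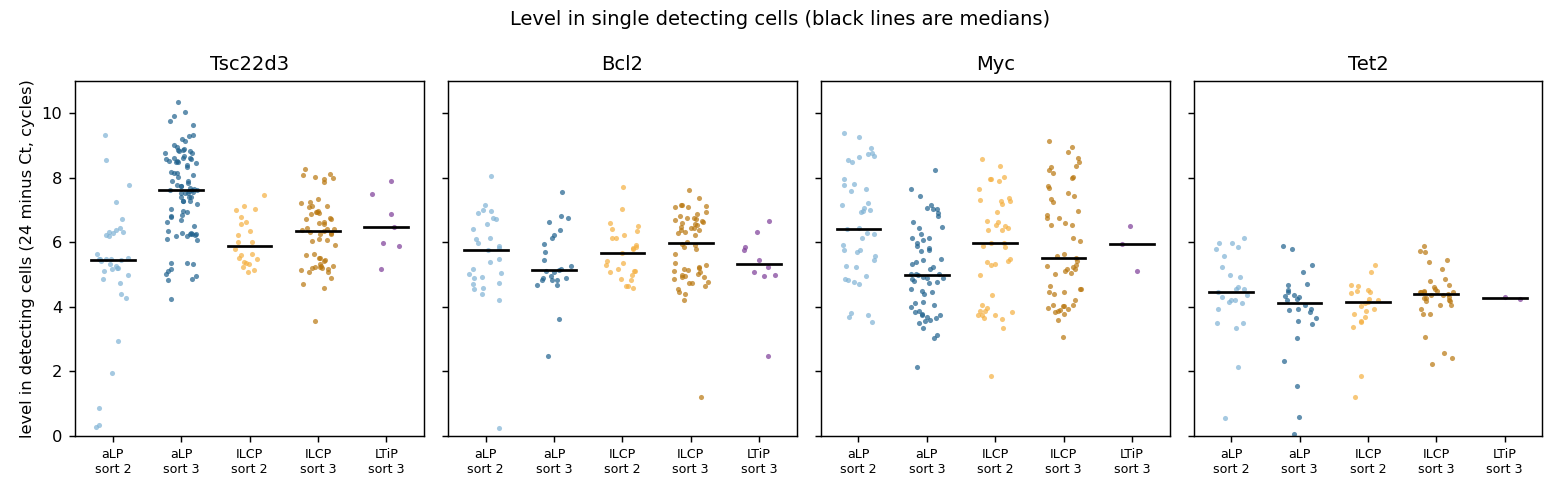
Level in single detecting cells (vertical axis, 24 minus Ct, in cycles) for each gene in the 5 pools (horizontal axis). Each point is a cell, with random horizontal spread, and black lines are medians. The median of Tsc22d3 is 7.63 in aLP of sort 3 and 5.46 in aLP of sort 2, and the Myc cells of ILCP in sort 3 run from 3.06 to 9.14.

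The difference between the sorts was larger for Tsc22d3 than for most of the panel. From sort 2 to sort 3 the share differed by 30.1 percentage points in aLP and by 29 points in ILCP, the second and the fourth highest values of 91 assays. The median size of this difference over the 91 assays was 5.68 points in aLP and 6.74 points in ILCP. On the mean level over all cells, with undetected cells at 0, the difference was 3.8 cycles in aLP, the highest of the 91 assays, and 1.90 cycles in ILCP, the third highest. In aLP it held both more detecting cells and a level 2.31 cycles higher in them, whereas in ILCP the level in detecting cells differed by 0.23 cycles. The housekeeping assays moved less and not together: in aLP the level differed between the sorts by 0.68 cycles for Actb, by -1.13 for Gapdh and by -0.68 for Hprt. In ILCP these values were -0.36, -0.66 and -0.18, the last including 1 cell with an Hprt Ct of 2.51. Markers moved between the sorts as well. In aLP, the shares in sorts 2 and 3 were 38.9% and 8.7% for Rag2, 14.8% and 2.2% for Lat, 25.9% and 7.61% for Cxcr5 and 55.6% and 30.4% for Il7r, with Bcl11b at 0 in each. In ILCP they were 14.5% and 12.2%, 41.9% and 37.8%, 38.7% and 45.6%, and 54.8% and 42.2%, and the part of these markers in the Tsc22d3 values was not tested. With 1 pool per group and sort, a difference between sorts cannot be told apart from a difference in handling.

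Tsc22d3 has 3 starts in the RefSeq promoter table, and the assay is not known to tell them apart. The glucocorticoid receptor hexamer AGAACA was searched on both strands in the 250 bases before each start. The window before the most upstream start held 1 match, at position -185 from the start, and the other 2 windows held none. It is printed because, of the windows searched for Tsc22d3, Bcl2 and Tet2, it alone held this motif, on the minus strand of GRCm38.p6 (chrX:140600523-140600772), with the match in capitals, read as the reverse complement of the hexamer:
Tsc22d3: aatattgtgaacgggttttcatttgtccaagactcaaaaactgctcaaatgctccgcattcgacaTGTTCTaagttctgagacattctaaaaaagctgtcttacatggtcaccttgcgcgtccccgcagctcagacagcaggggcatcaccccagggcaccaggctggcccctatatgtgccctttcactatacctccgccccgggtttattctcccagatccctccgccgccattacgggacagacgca
No match was found in the windows of Bcl2 and Tet2. The hexamer occurs in 16.1% of 32851 such windows, so a match by itself describes letters and not a binding site.

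Bcl2 was detected in fewer ILCP than aLP cells in sort 2 and in more ILCP than aLP cells in sort 3. Bcl2 lies on chromosome 1 (GRCm38.p6, chr1:106538176-106714290). It was detected in 29 of 54 aLP cells of sort 2 (53.7%, 39.6% to 67.4%) and in 25 of 92 aLP cells of sort 3 (27.2%, 18.4% to 37.4%). In ILCP it was detected in 27 of 62 cells of sort 2 (43.5%, 31% to 56.7%) and in 56 of 90 cells of sort 3 (62.2%, 51.4% to 72.2%). The sorts thus differed by -26.5 points in aLP and by 18.7 points in ILCP, in opposite directions. LTiP had the highest share, with 10 of 14 cells (71.4%, 41.9% to 91.6%), and aLP of sort 3 the lowest. Neighbouring pools in the order of shares had overlapping intervals, and the interval of aLP in sort 3 overlapped that of ILCP in sort 2 only.

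The level of Bcl2 in detecting cells varied less than its share. It was 5.57 ± 1.42 and 5.36 ± 1.06 cycles in aLP of sorts 2 and 3, 5.67 ± 0.79 and 5.83 ± 1.12 in ILCP, and 5.27 ± 1.13 in LTiP. The 5 means differed from each other by less than the smallest of these SDs, while the shares ran from 27.2% to 71.4%. Relative to the housekeeping mean, Bcl2 lay 4.53 and 3.62 cycles below it in aLP, 4.87 and 3.8 in ILCP, and 3.02 in LTiP.

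Myc was detected in a majority of aLP and ILCP cells of each sort and in few LTiP cells. Myc lies on chromosome 15 (GRCm38.p6, chr15:61985341-61990361). It was detected in 42 of 54 aLP cells of sort 2 (77.8%, 64.4% to 88%) and in 60 of 92 of sort 3 (65.2%, 54.6% to 74.9%). In ILCP it was detected in 43 of 62 cells of sort 2 (69.4%, 56.3% to 80.4%) and in 57 of 90 of sort 3 (63.3%, 52.5% to 73.2%). These 4 shares had overlapping intervals, and those of the aLP and ILCP pools of sort 3 differed by 1.88 points. In LTiP, Myc was detected in 3 of 14 cells (21.4%, 4.66% to 50.8%).

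The level of Myc in detecting cells was 6.56 ± 1.65 cycles in aLP of sort 2 and 5.12 ± 1.32 in aLP of sort 3. It was 5.78 ± 1.67 and 5.93 ± 1.72 in ILCP of sorts 2 and 3, and 5.86 ± 0.71 in the 3 LTiP cells. The aLP pools were thus the highest and the lowest. From sort 2 to sort 3 the level in detecting aLP cells differed by -1.44 cycles, and in ILCP by 0.15 cycles. Relative to the housekeeping mean, Myc lay 3.62 and 3.97 cycles below it in the aLP pools, so that their difference was smaller on that scale. Single ILCP cells of sort 3 ran from 3.06 to 9.14, with quartiles of 4.46 and 7.43.

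Tet2 was the least often detected of these genes in 3 of the 5 pools, and it had equal shares with Tsc22d3 in ILCP of sort 2. Tet2 lies on chromosome 3 (GRCm38.p6, chr3:133463677-133545136). It was detected in 25 of 54 aLP cells of sort 2 (46.3%, 32.6% to 60.4%), 26 of 92 aLP cells of sort 3 (28.3%, 19.4% to 38.6%), 22 of 62 ILCP cells of sort 2 (35.5%, 23.7% to 48.7%) and 35 of 90 ILCP cells of sort 3 (38.9%, 28.8% to 49.7%). In LTiP it was detected in 2 of 14 cells (14.3%, 1.78% to 42.8%). All 5 intervals overlapped. The level in detecting cells was 4.44 ± 1.26 and 3.83 ± 1.39 cycles in aLP, 3.96 ± 0.93 and 4.34 ± 0.84 in ILCP and 4.27 ± 0.05 in the 2 LTiP cells. The quartiles were 4.12 and 5.24 in aLP of sort 2, 3.6 and 4.50 in aLP of sort 3, 3.71 and 4.49 in ILCP of sort 2, and 4.11 and 4.65 in ILCP of sort 3. Set against the housekeeping mean, Tet2 lay 6.08 and 5.18 cycles below it in aLP of sorts 2 and 3, 6.51 and 5.46 in ILCP, and 4.70 in LTiP. The order of the 2 aLP pools was thus reversed on that scale.

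The comparison of ILCP with aLP asks which genes go with PLZF in these precursors. On the mean level over all cells, Tsc22d3 was 5.40 ± 2.69 cycles in aLP and 3.09 ± 1.34 in ILCP (mean ± SD, n = 2 pools each). Its ILCP minus aLP difference was -1.35 cycles in sort 2 and -3.27 in sort 3, or -2.31 (SE 1.55) in limma, the third lowest of the 91 assays tested. Bcl2 was 2.22 ± 1.09 in aLP and 3.05 ± 0.82 in ILCP, with differences of -0.52 and 2.2 in sorts 2 and 3 and 0.82 (SE 0.73) in the fit. The difference of Tsc22d3 was thus below 0 in each sort, and that of Bcl2 changed sign. Myc was 4.22 ± 1.25 in aLP and 3.88 ± 0.18 in ILCP, with -1.10 and 0.42 in the sorts and -0.34 (SE 0.68) in the fit. Tet2 was 1.57 ± 0.69 and 1.55 ± 0.20, with -0.65 and 0.61 in the sorts and -0.02 (SE 0.43) in the fit. Such differences reflect both how many cells detected a gene and how much they held, and are not folds.

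With limma and Benjamini-Hochberg adjustment over the 91 assays, 0 of the 4 genes passed 0.05, against 6 of 91 assays (6.59%), and at an unadjusted p under 0.05 the counts were 0 of 4 and 27 of 91. The median difference over the 91 assays was 0.54 cycles. Without aLP of sort 2, Tsc22d3 passed the limma test, with a difference of -4.22 and an adjusted p of 0.0101. The lone aLP pool is then assumed to vary as the ILCP pools do. Without that pool Myc and Tet2 turned to 0.54 and 0.46, and without ILCP of sort 2 Tet2 turned to 0.12. The count of 6 assays was 20 without aLP of sort 2 and 0 without either ILCP pool. The ILCP share was below the aLP share in each sort for Tsc22d3 and Myc, as for 15 of the 91 assays (16.5%), and above it in each sort for 0 of the 4 genes, against 55 of 91 (60.4%). The level difference had opposite signs in the 2 sorts for Bcl2, Myc and Tet2, as for 18 of 91 assays (19.8%). As the genes were selected on this contrast, nothing is read from these counts.

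**Figure D3:**
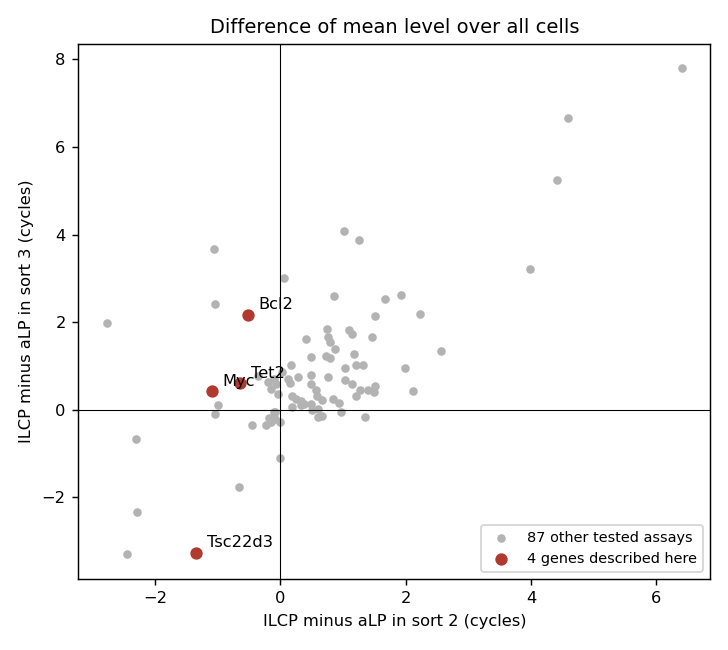
Difference of the mean level over all cells, ILCP minus aLP, in sort 2 (horizontal axis, cycles) and sort 3 (vertical axis, cycles), for the 91 tested assays. Red points are the 4 genes. Tsc22d3 is below 0 on each axis (-1.35 and -3.27), and Bcl2, Myc and Tet2 are below 0 in sort 2 and above 0 in sort 3.

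Cell numbers within a sort gave a closer look, since they run in blocks of 96 that could mark plates, although no label says so. All aLP cells of sort 2 had numbers from 97 up, but only 10 of its ILCP cells did. In the 4 ranges that held both groups, Tsc22d3 was detected in 66.7%, 100%, 94.3% and 97.0% of the aLP cells, against 40%, 57.9%, 59.4% and 71.8% of the ILCP cells, so ILCP was lower in each. Bcl2 was detected in 20.8%, 31.4% and 27.3% of the aLP cells, against 73.7%, 53.1% and 64.1% of the ILCP cells, in the ranges of sort 3, with ILCP higher in each, and in 53.7% and 40% in the range of sort 2. The Bcl2 difference of sort 3 was thus present in each of its ranges, and that of sort 2 rested on 10 ILCP cells there. Myc was less even: in the ranges of sort 3 it was detected in 45.8%, 74.3% and 69.7% of the aLP cells, against 68.4%, 56.3% and 66.7% of the ILCP cells. In the range of sort 2 it was detected in 77.8% of aLP and 90% of the 10 ILCP cells, opposite in direction to the difference of -8.42 points between the whole pools of that sort. Tet2 was detected in 29.2%, 25.7% and 30.3% of the aLP cells of sort 3, against 52.6%, 31.3% and 38.5% of its ILCP cells. ILCP was thus higher in each range of sort 3. In the range of sort 2 it was lower, with Tet2 in 46.3% of aLP and 40% of the 10 ILCP cells.

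**Figure D4:**
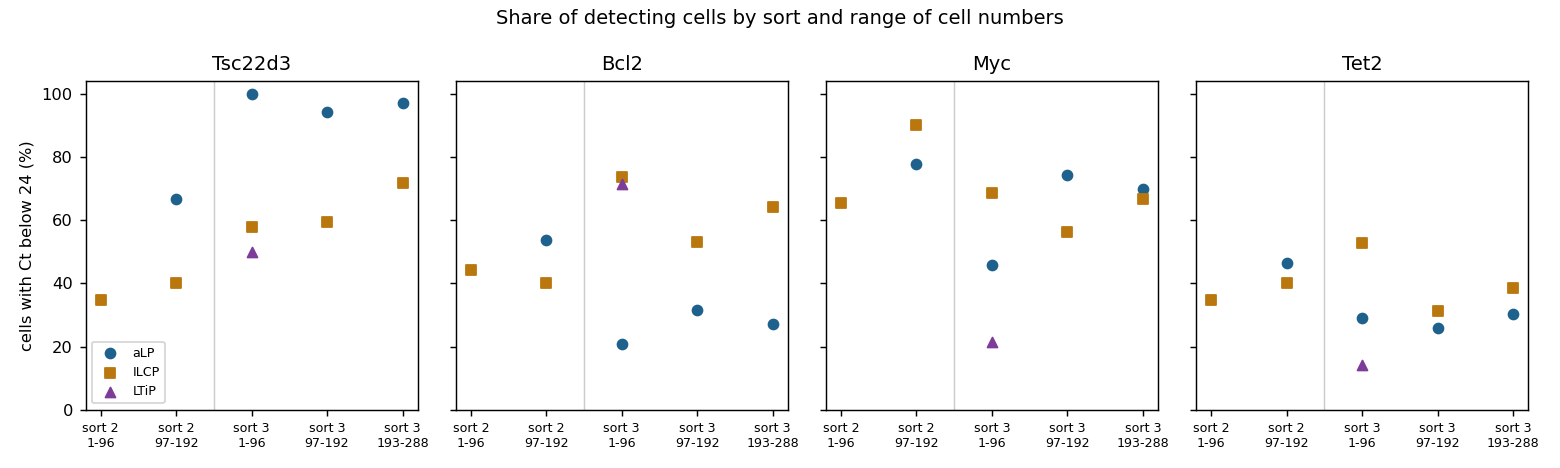
Share of cells with a Ct below 24 (vertical axis, percent) by sort and range of cell numbers (horizontal axis), with aLP as circles, ILCP as squares and LTiP as triangles. ILCP points of Tsc22d3 lie below the aLP points in the 4 ranges with both groups (40% to 71.8% against 66.7% to 100%), and those of Bcl2 lie above them in the 3 ranges of sort 3.

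LTiP cells came from sort 3 only, so they are set beside the aLP and ILCP pools of that sort, with no test. For Myc, the LTiP share differed from that of aLP by -43.8 points and from that of ILCP by -41.9 points, and its interval lay below both of theirs. For Tsc22d3, the difference from aLP of -46.7 points was the lowest of the 91 assays, and its interval lay below that of aLP, while the difference from ILCP was -14.4 points with overlapping intervals. The LTiP interval was below that of aLP for 3 of 91 assays (3.30%) and below that of ILCP for 13 of 91 (14.3%). Bcl2 stood the other way: the LTiP share was 44.3 points above that of aLP, with its interval above, as for 18 of 91 assays (19.8%). It was 9.21 points above that of ILCP with overlapping intervals, and the LTiP interval was above that of ILCP for 5 of 91 assays (5.49%) and for 0 of the 4 genes. The Tet2 differences of -14.0 and -24.6 points came with overlapping intervals.

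All 14 LTiP cells were numbered 1 to 96. Against cells of that range alone, the Myc difference from aLP was -24.4 points, the Tsc22d3 difference from aLP -50 points, and the Tet2 difference from ILCP -38.4 points. The Bcl2 difference from ILCP turned to -2.26 points, against 19 ILCP cells. In this range the LTiP interval of Myc (4.66% to 50.8%) overlapped those of aLP (25.6% to 67.2%) and ILCP (43.4% to 87.4%). That of Bcl2 (41.9% to 91.6%) overlapped that of aLP (7.13% to 42.2%), while Tsc22d3 in LTiP stayed below aLP (85.8% to 100%). The Myc difference from ILCP (-47.0 points, beside -41.9 in the whole pool) and the Bcl2 difference from aLP (50.6, beside 44.3) were not smaller here. With 24 aLP and 19 ILCP cells, the intervals of these groups were wider than in the whole pools. LTiP cells also had the highest mean housekeeping Ct of the pools. Among cells whose housekeeping Ct lay within the interquartile range over all cells, which left 6 LTiP cells, the Myc difference was -36.3 points from aLP and -27.0 points from ILCP, and the Tet2 differences were -10.1 and -19.5 points. In the 4 LTiP cells without Bcl2 the mean housekeeping Ct was 14.7, against 15.7 in the 10 cells with it, so the Bcl2-detecting cells had less housekeeping cDNA. Fewer than 15 cells stand behind each LTiP value.

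In aLP of sort 2, cells that detected Myc, Bcl2 or Tet2 had more housekeeping cDNA than cells that did not, and for Tsc22d3 the size of this gap depended on the detection limit. In that pool the mean housekeeping Ct was 13.8 in cells with Myc and 17.5 in the 12 cells without it, 13.9 and 15.5 for Bcl2, and 13.5 and 15.6 for Tet2, but 14.6 and 14.7 for Tsc22d3. Of the 7 cells with an Actb Ct above 16, 0 detected Myc, 0 Tet2, 1 Bcl2 and 5 Tsc22d3. The Tsc22d3 levels of these 5 cells were low, at 0.26, 0.33, 0.86, 1.95 and 2.95 cycles, so 4 of them lay within 2 cycles of the limit. With a limit of Ct 22, chosen after seeing the data, Tsc22d3 was detected in 1 of the 7 cells and the housekeeping Ct was 13.9 with it and 15.7 without it, a gap of 1.80 cycles beside 1.98 for Bcl2 and 2.21 for Tet2. Among the 47 remaining cells, Myc was detected in 89.4%, Bcl2 in 59.6%, Tet2 in 53.2% and Tsc22d3 in 66%, and the Tsc22d3 level was 5.88 ± 1.13 cycles. In sort 3 such gaps were small: the housekeeping Ct of cells with and without a gene differed by at most 0.33 cycles in aLP and ILCP for each of the 4 genes.

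Correlations across the cells of a pool are descriptions, since the cells share a sort and a cDNA preparation. The level of Tsc22d3 in detecting cells followed the housekeeping level in aLP of sort 2 (r = 0.82, rho = 0.54, 36 cells), but r was 0.27 in the 31 cells with an Actb Ct of at most 16. In the other 3 aLP and ILCP pools it was -0.05, 0.11 and 0.03. For Bcl2 the same r was 0.78 in aLP of sort 2 and 0.49 without the low-cDNA cells, and 0.32, 0.36 and 0.21 in the other pools. The value of aLP in sort 3 rested on 1 cell with an Actb Ct above 16: without it r was -0.20, and rho was -0.06 with it. For Myc it was 0.31 and 0.48 in aLP and 0.18 and 0.39 in ILCP. Among pools other than aLP of sort 2, Tsc22d3 thus varied between detecting cells with almost no relation to housekeeping cDNA.

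Between the genes, no pair had a strong correlation in every pool. Myc and Bcl2 had the highest mean r over the 4 aLP and ILCP pools in cells that detected both, 0.28, with 0.44, 0.24, 0.31 and 0.14 in 26, 15, 21 and 33 cells. After the linear relation to the housekeeping Ct was removed within each pool, the mean was 0.096, so little of that mean was left. The pools differed in this, with 0.19 and 0.03 in aLP of sorts 2 and 3 and 0.23 and -0.07 in ILCP. In ILCP of sort 2 most of the 0.31 thus remained. The r of 0.24 in aLP of sort 3 included the 1 cell of that pool with an Actb Ct above 16. This cell had the lowest level of both genes in the pool. There rho was 0.11, and r was 0.03 after the housekeeping relation was removed. The r of this pair without the cell was not computed. Bcl2 and Tsc22d3 had r = 0.50 in 20 aLP cells of sort 2, with rho = -0.06. That value rested on 1 cell with little cDNA: without it, r was -0.29 in 19 cells. Myc and Tsc22d3 had r = -0.07, -0.25, 0.30 and -0.21, and the other pairs were between -0.19 and 0.39. Bcl2 and Tet2 in aLP of sort 3 shared only 6 cells and were given no r.

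**Figure D5:**
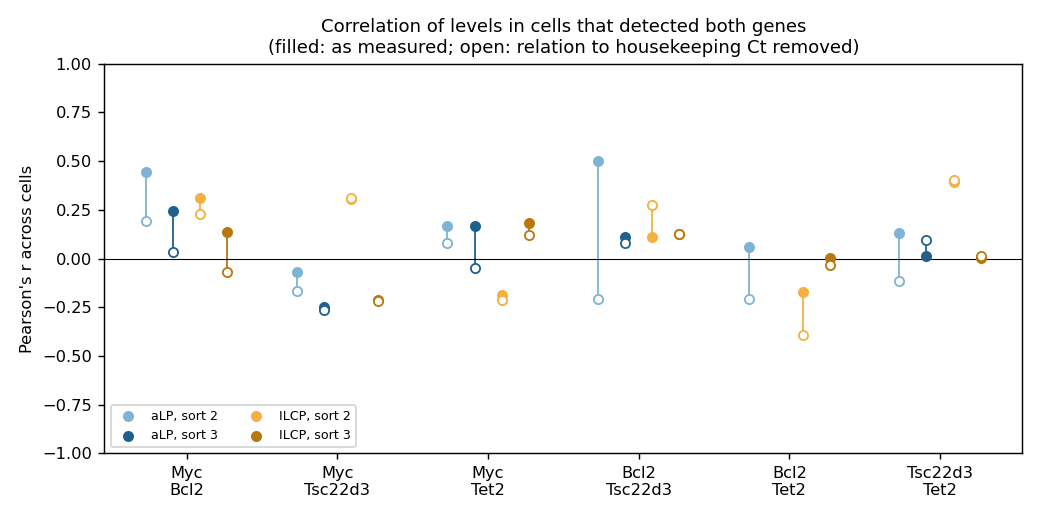
Pearson's r of the levels of 2 genes across the cells that detected both (vertical axis), for the 6 pairs (horizontal axis) in the aLP and ILCP pools. Filled points are levels as measured and open points are levels after the linear relation to the housekeeping Ct was removed. The Bcl2 and Tsc22d3 point of aLP in sort 2 moves from 0.50 to -0.21.

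Detection in the same cells went together for a few pairs in sort 2, but in sort 3 this was weaker or the other way. In ILCP of sort 2, Bcl2 and Tsc22d3 were detected together in 16 of 62 cells (25.8%), where the product of their shares is 15.5%. Tsc22d3 was detected in 59.3% of the ILCP cells with Bcl2 and in 17.1% of those without it. In sort 3 the corresponding shares were 69.6% and 55.9%. In ILCP of sort 2 the mean housekeeping Ct was 13.5 in cells with Bcl2 and 14.4 in cells without it, and the part of this difference was not tested. Also in that pool, Tet2 was detected in 54.5% of cells with Tsc22d3 and 25% of cells without it, but in sort 3 in 32.8% and 50.0%, the other way. In aLP of sort 2, Bcl2 was detected in 61.9% of cells with Myc and in 25% of those without it, cells that differed by 3.66 cycles in housekeeping Ct. In aLP of sort 3 these shares were 25% and 31.3%, the other way. In ILCP they were 48.8% and 31.6% in sort 2, and 57.9% and 69.7% in sort 3.

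A cell detected a mean of 2.44 and 2.2 of the 4 genes in aLP of sorts 2 and 3, 1.84 and 2.29 in ILCP and 1.57 in LTiP. All 4 were detected together in 9 of 54 and 4 of 92 aLP cells, in 9 of 62 and 6 of 90 ILCP cells, and in 0 of 14 LTiP cells. Detection of all 4 in a cell was thus the exception in each pool. Cells with none of them numbered 2 and 1 in aLP, 7 and 3 in ILCP and 2 in LTiP.

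The assays most like each gene were found by 2 measures. By the mean absolute difference of shares over the 5 pools, Bcl2 was closest to Il7r, the interleukin-7 receptor α chain gene, with 7.28 points. Il7r had shares of 55.6% and 30.4% in aLP of sorts 2 and 3, 54.8% and 42.2% in ILCP and 71.4% in LTiP, where it equalled Bcl2. In ILCP the shares of these 2 genes went opposite ways between the sorts, as Bcl2 had 43.5% and 62.2%. Foxo1 followed at 12.2 points and Il2rb at 12.8. Tsc22d3 was closest to the transcription factor gene Irf8 (13.6 points), the co-repressor gene Tle1 (13.7) and Tcf3 (18.5), so no assay came as near to it as Il7r to Bcl2. Myc was closest to Tle4 (9.84), Tcf3 (13.6) and Sox4 (15.4), and Tet2 to the interleukin-12 receptor gene Il12rb2 (4.81), Runx1 (7.0) and Cdkn1c (8.35).

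By the mean within-pool r over all cells, among 40 assays with a share of 20% or more in each aLP and ILCP pool, Bcl2 went with Tox, an HMG-box factor of lymphocyte development, at 0.46. The 4 pools gave 0.43, 0.42, 0.66 and 0.34, so the relation was above 0.3 in each. Runx3 (0.36) and Rbpj (0.35) followed. For Tsc22d3 the 3 highest values were Tle1 (0.28), Itga4 (0.24) and Cbfb (0.19). For Myc they were the housekeeping genes Gapdh (0.33) and Hprt (0.31) and Cbfb (0.31), and for Tet2 they were Tle4 (0.31), Cbfb (0.27) and Actb (0.26). Housekeeping genes were thus among the 3 highest for Myc and Tet2 and not for Bcl2 and Tsc22d3. These r values were not adjusted for the housekeeping Ct. In detecting cells, r with the housekeeping level was 0.78, 0.32, 0.36 and 0.21 for Bcl2 in the 4 pools. For Tet2 it was 0.50, 0.27, 0.04 and 0.17, so Bcl2 was not the less related. Low-cDNA cells weighed on the 2 aLP values of Bcl2, as given above.

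Other genes of these pathways were taken from lists, whose counts stand beside 6 of 91 assays that passed the limma test (6.59%) and 27 of 91 at an unadjusted p under 0.05. Of 14 genes listed for cytokine signals and survival, 4 were on the panel and tested (Il7r, Il2rb, Bcl2 and Foxo1), 0 passed the limma test of ILCP against aLP (1, Il2rb, at an unadjusted p under 0.05), and the median difference was 0.79 cycles, beside 0.54 over all 91 assays. Il2rb, the interleukin-2 and interleukin-15 receptor β chain gene, had shares of 22.2% and 21.7% in aLP, against 46.8% and 45.6% in ILCP. Foxo1, a transcription factor gene that acts upstream of Il7r, had shares of 42.6% and 55.4% in aLP, against 62.9% and 60% in ILCP. Of 15 genes listed for growth and the cell cycle, 5 were tested (Myc, Igf2, H19, Igfbp4 and Hif1a), 0 passed in limma (3, Igf2, H19 and Hif1a, at an unadjusted p under 0.05), and the median difference was 1.46. H19, an imprinted RNA, had shares of 35.2% and 21.7% in aLP, against 50% and 70% in ILCP, and Hif1a, the oxygen-sensing factor gene, had 83.3% and 73.9%, against 96.8% and 96.7%. Igfbp4, the gene of an IGF-binding protein, went opposite ways in the sorts, with 79.6% and 46.7% in aLP, against 30.6% and 71.1% in ILCP. Igf2, a growth factor gene, had 0% and 2.2% in aLP, against 21% and 27.8% in ILCP. Tsc22d3 was the only 1 of 7 listed glucocorticoid response genes on the panel and Tet2 the only 1 of 7 listed DNA methylation genes, so neither pathway can be described beyond them. Of 10 genes listed for the Notch pathway, 7 were tested and 0 passed in limma (2, Hes1 and Tle1, at an unadjusted p under 0.05), with a median of 0.26. Of the 4 housekeeping assays 0 passed (1, Hprt, at an unadjusted p under 0.05), with a median of 0.74.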

How the data were processed

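The deposited values are raw Ct values of 100 assays in 313 cells, with no normalization by the authors, per the file headers. The Ct values number 11450, and all other combinations of assay and cell are missing, by a rule not given in the sources used here. For the 4 genes described here, most undetected cells are such missing values. Per the series text, 339 cells were sorted and 299 passed a housekeeping filter. Per the labels' protocols, assays were TaqMan or Solaris, while the label field names SYBR Green. The series text gives 2 sorts, and no label defines the sort number. No columns of other samples were used.

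A cell was kept if it detected 5 or more assays, among them Actb, Gapdh, Hprt or Tbp, and 1 aLP cell of sort 2 did not. The 1 Hprt Ct of 2.51 (the next lowest was 13.2) was left out of housekeeping means. A pool's value was the mean level over its cells, with undetected cells at 0. The 91 assays with a share of 5% or more in any aLP or ILCP pool were fitted with limma 3.58.1 in R 4.3.3 (lmFit, eBayes, group as the only term), and the script was tested on simulated data. Cells are not replicates: p-values measure the spread between 2 pools a group, which may be technical. Shares carry Clopper-Pearson intervals. Gene positions and promoter windows are from RefSeq (GRCm38.p6), where windows were found for Tsc22d3, Bcl2 and Tet2.

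The genes and lists were chosen with earlier results of these data known. The text names the 4 genes, the housekeeping genes, list members on the panel and, for each gene, the 3 assays nearest by share and by within-pool correlation. Alternatives varied the detection limit, the averaging, scaling, cell and assay filters, cell numbers, the block and the pools. The restriction to an Actb Ct of at most 16, and the limit of Ct 22 for the housekeeping gaps, were chosen after seeing the data. Python 3.11.15, pandas 2.3.3 and matplotlib 3.10.9 were used.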

Additional observations from a re-analysis of the deposited data

How the results depend on the processing

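The ILCP minus aLP difference of Tsc22d3 was below 0 under every alternative run, and that of Bcl2 above 0. Over detecting cells only, however, it was -0.25 (SE 0.66) for Tsc22d3 and 0.28 (SE 0.38) for Bcl2, beside -2.31 and 0.82 in the main fit. In sort 2 the level of Tsc22d3 in detecting cells was higher in ILCP (6.03) than in aLP (5.24). Leaving out 1 pool at a time gave -4.22 to -0.40 for Tsc22d3 and 0.056 to 1.59 for Bcl2. Myc turned from -0.34 to 0.014 over detecting cells only, 0.073 with a linear average over cells and 0.37 with cells of sort 2 numbered 97 or higher, and ran from -1.22 to 0.54 when a pool was left out. Tet2 turned to 0.016 over detecting cells only and 0.10 with the higher numbers, and ran from -0.51 to 0.46; it could not be tested with the median over cells. For both, the value was 0.54 and 0.46 without aLP of sort 2, and for Tet2 it was 0.12 without ILCP of sort 2. The number of the 4 genes that passed was 0 except without aLP of sort 2, where it was 1 (Tsc22d3). The number of assays that passed, 6, was 11 with a 20% filter, 1 over detecting cells, 0 within the interquartile range of the housekeeping Ct (14 at an unadjusted p under 0.05 in limma), 12 and 11 with limits of Ct 26 and 28, 15 with the linear average and 13 with shares. It ran from 0 (without either ILCP pool; 19 and 23 at an unadjusted p under 0.05) to 20 without aLP of sort 2. With the sort as a replicate block it was 2, and 0 of the 4 genes passed. As each sort held both groups, the block could not change the differences of the 4 genes, only their SEs. The SE was 0.62 for Tsc22d3, 0.52 for Myc, 0.83 for Bcl2 and 0.46 for Tet2. Without the block these SEs were 1.55, 0.68, 0.73 and 0.43. Same-numbered aLP and ILCP pools deviated from their group means with a correlation of -0.047 over the 91 assays. For LTiP, restricting sort 3 to cells 1 to 96 moved the share differences of Myc (-24.4) and Tsc22d3 (-50.0) from aLP and of Tet2 (-38.4) from ILCP and turned that of Bcl2 from ILCP to -2.26. The Myc difference from ILCP was then -47.0 points and the Bcl2 difference from aLP 50.6 points. Restricting to an Actb Ct of at most 16, chosen after seeing the data, turned no direction of these group differences. It turned r of Bcl2 with the housekeeping level in aLP of sort 3 from 0.32 to -0.20. It also turned r of Bcl2 and Tsc22d3 in aLP of sort 2 from 0.50 to -0.29. Correlations between the genes were rerun with this restriction in aLP of sort 2 only. The cause of these changes was not tested. Depth is limited by the number of cells, above all the 14 LTiP cells.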
